A study of Mus musculus with 6 samples.

Results

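Serpins are a family of proteins named as serine protease inhibitors. An inhibitory serpin presents a loop as bait, and the protease that cuts it is trapped in a covalent complex while the serpin changes its fold. The liver secretes many of them into plasma, where they hold back coagulation, fibrinolysis, complement and leukocyte proteases, and some members carry hormones or fold collagen and inhibit no protease. The members were the genes whose symbol starts with Serpin in the liver expression table, without rows named or typed as pseudogenes. Of 49 such rows, 4 were left out and 45 members remained among the 28880 genes of the table.

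The libraries came from whole livers of male wild-type C57BL/6J mice aged 6 to 8 weeks, all labelled batch 1. In the acute ethanol group, 3 mice were fasted for 12 h, received ethanol once by mouth as a 50% solution at 6 g/kg, and gave their livers 24 h later. The 3 control mice received no ethanol, and the sources used here do not say whether they were fasted, so that ethanol and the fast cannot be told apart. The comparison asks which serpin transcripts differed after this exposure. Each replicate is 1 mouse.

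Totals were 71123046 to 74001784 counts per ethanol library and 60514417 to 74210869 per control library. Ethanol replicate 3 stood apart from the other libraries of its group. Its log2 CPM correlated with theirs at 0.949 and 0.943, against 0.968 between ethanol replicates 1 and 2 and 0.976 to 0.981 between controls. Calls of Serpin and partner genes that rest on it are therefore given with and without it. The liver label was checked against hepatocyte markers, whose FPKM summed to 36472 to 44490 in all 6 libraries. FPKM, the fragments of a gene scaled to transcript length and library size, is used here to compare genes, whereas CPM, the counts of a gene scaled to the library total after TMM, is used to compare groups. Scaling mattered. TMM, which sets the bulk of genes level, gave factors of 0.768 to 0.836 for ethanol and 1.26 to 1.27 for control libraries, and over the 16717 genes tested the log2 fold change had a median of -0.04 with TMM but -0.71 with library size alone. A gene is called where edgeR's adjusted p was under 0.05 and the log2 fold change lay beyond 1.

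Of the 45 members, 32 passed the filter on low counts and were tested. In ethanol livers, 9 of them (28.1%) were called higher, among them Serpina3c, Serpina3n, Serpina3m, Serpina3h, Serpina6, Serpinb6b, Serpina3g and Serpina3k, and 2 (6.25%) lower, Serpinb9 and Serpinh1. Among all genes tested, 10.4% were called higher and 13.8% lower. The remaining 21 members were not called. By the adjusted p alone, 18 members were higher against 21.5% of all genes, and 4 were lower, also against 21.5%. The median log2 fold change of the 32 members was 0.65 with TMM and -0.02 with library size alone, but 23 members lay above the median of all genes, and 9 below it, under either scaling. The 3 ethanol libraries all lay above the 3 control libraries in CPM in 20 members and all below them in 7, against 28.0% and 31.0% of all genes. In FPKM they did so in 6 and 11 members, against 9.45% and 57.4% of all genes, so that in either unit a smaller share of the members than of all genes was lower throughout. Serpina3m and Serpina6 kept their calls in each of 17 alternative analyses of the whole table. Without control replicate 1, only 5 members were called higher, beside 8.79% of all genes, and without control replicate 3, none was called lower by edgeR, beside 9.88% of all genes, where 4 members with a negative value had an unadjusted p under 0.05.

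**Figure D1:**
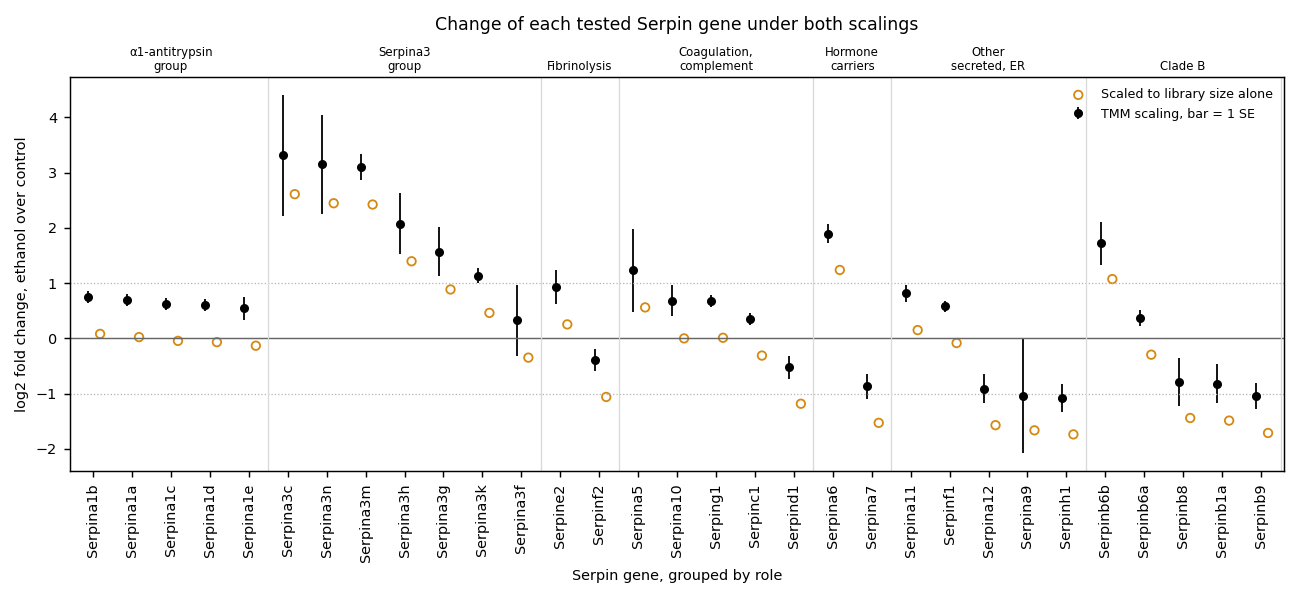
Log2 fold change of ethanol over control for the tested Serpin genes reported here, grouped by role, with TMM scaling (black points, bars of 1 SE) and with library size alone (open points). Dotted lines mark a log2 fold change of 1 in either direction. Most open points lie about as far below their black point as the median of all genes shifted, from -0.04 to -0.71, and the α1-antitrypsin genes move from above 0 to near 0.

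The α1-antitrypsin genes Serpina1a to Serpina1e and Serpina3k held most serpin transcript in these livers. Together these 6 genes made up 87.2% to 93.9% of the summed FPKM of all members in each library. Serpina3k, a kallikrein-binding member of the Serpina3 group, was at 7724, 6964 and 7849 FPKM in ethanol and 5132, 5667 and 5623 FPKM in control livers. Serpina1c, at 5353 to 5862 FPKM, Serpina1e, at 3934 to 6177 FPKM, and the other 3 copies, at 2393 to 3277 FPKM, overlapped between the groups. All Serpin members summed to 26504 to 30464 FPKM in ethanol and 26102 to 27188 FPKM in control livers. As a share of the FPKM of all genes they made up 5.70% to 6.16% and 5.99% to 6.32%.

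**Figure D2:**
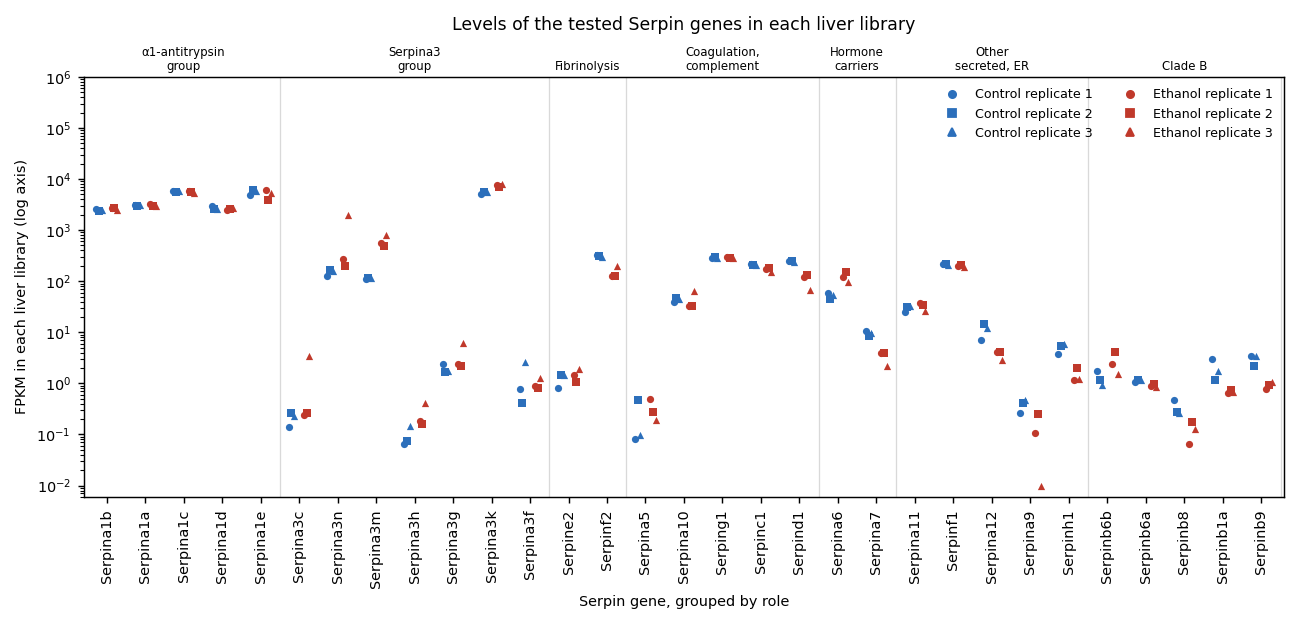
FPKM of the tested Serpin genes reported here in each of the 6 liver libraries, on a log axis, grouped by role. Blue marks are control and red marks ethanol libraries, with a marker shape for each replicate, and the 0 of Serpina9 in ethanol replicate 3 is drawn at 0.01. The 6 abundant genes lie at 2393 FPKM or more, while Serpina3m and Serpina6 separate the groups at lower levels.

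α1-Antitrypsin is the main plasma inhibitor of neutrophil elastase, and the mouse carries several copies of its gene in place of the single human one. The 5 copies lay within 103694415 to 103925234 on chromosome 12 as the deposited table gives positions. A stretch of each promoter is shown because the 5 copies, whose changes were alike, are near-identical there too. The rest of these promoters was not aligned. The sequences are from RefSeq on GRCm38.p6, minus strand, end at or before the annotated start site, and have in capitals the bases GTTAAT, which is one arm of the binding motif of HNF1, a liver transcription factor.
Serpina1a: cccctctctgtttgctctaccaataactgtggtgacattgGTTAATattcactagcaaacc
Serpina1b: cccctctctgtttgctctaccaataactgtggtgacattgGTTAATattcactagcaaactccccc
Serpina1c: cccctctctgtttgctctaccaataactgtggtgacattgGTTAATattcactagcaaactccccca
Serpina1d: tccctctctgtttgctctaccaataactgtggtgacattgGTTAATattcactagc
Serpina1e: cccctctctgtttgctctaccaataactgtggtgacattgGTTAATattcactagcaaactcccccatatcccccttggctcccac
They lie at chr12:103863620-103863680, chr12:103738190-103738255, chr12:103904951-103905017, chr12:103773634-103773689 and chr12:103956930-103957015. Serpina1a shared 60 of 61 bases with Serpina1b, Serpina1c and Serpina1e and 55 of 56 with Serpina1d, aligned at the capitals without gaps. GTTAAT, searched on both strands, was found in 7.1% of the 32851 promoters of the table and in 8 of the 36 members that have one there. The match is a description of the letters and not a binding site.

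None of the 5 copies was called by edgeR, DESeq2 or limma, although all 5 had an unadjusted p under 0.05 in edgeR. The edgeR adjusted p was 0.00206 to 0.00590 for Serpina1a to Serpina1d and 0.0719 for Serpina1e. All 5 copies lay under the threshold of 1. Their log2 fold changes were 0.75 ± 0.11 (SE, n = 3 per group) for Serpina1b, 0.69 ± 0.12 for Serpina1a, 0.62 ± 0.11 for Serpina1c, 0.60 ± 0.12 for Serpina1d and 0.54 ± 0.21 for Serpina1e with TMM. With library size alone, the values of Serpina1c, Serpina1d and Serpina1e turned to -0.05, -0.07 and -0.13, and those of Serpina1b and Serpina1a came to 0.08 and 0.02. As the Serpina1b model contains Serpina1d and reads may be split among copies, the counts of all 5 were also summed. The sum gave 0.64 ± 0.13 with TMM, which edgeR did not call although its adjusted p was 0.00768, and -0.04 with library size alone. Relative to the median of all genes, the sum was 0.68 higher with TMM and 0.67 higher with library size alone. In FPKM, the sum of the 5 copies was 17672 to 20480 in ethanol and 19271 to 19895 in control livers, and the groups overlapped.

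The Serpina3 group is the mouse expansion of the gene for α1-antichymotrypsin, an acute-phase inhibitor of chymotrypsin-like proteases. It held 11 members, of which 7 were tested and 6 were called higher, the other being Serpina3f, beside 10.4% of all genes. With library size alone 2 of the 7 were called, Serpina3m and Serpina3n, beside 5.06% of all genes. Limma called Serpina3m alone on log2(FPKM + 1) and on log2(FPKM + 0.1), beside 2.55% and 4.69% of all genes called higher. Without control replicate 1 or 2, only Serpina3k and Serpina3m of the group were called, and without control replicate 3 also Serpina3h. Of all genes, 8.57% to 8.79% were called higher in these fits. Its summed FPKM was 7653 to 10644 in ethanol and 5372 to 5952 in control livers, and the groups did not overlap. Beside it, the neutrophil markers were also higher, with 5 of 6 tested genes, out of 8 listed, called higher and none lower. Their summed FPKM was 2.35, 4.12 and 14.3 in ethanol replicates 1, 2 and 3 and 0.467 to 0.893 in controls, Elane had no count in any ethanol library, and the part of these cells in the Serpina3 values was not tested. In bulk tissue, a change in the number of cells of a type and a change in RNA per cell cannot be told apart.

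Serpina3m rose in every ethanol library. It was at 1300, 1078 and 1938 CPM in ethanol and 161, 170 and 172 CPM in control livers. Every ethanol library lay above every control library, and the controls were tightly grouped. Serpina3m had a log2 fold change of 3.10 ± 0.23 (SE, n = 3 per group), an 8.58-fold rise with an edgeR adjusted p of 0.000185, and 2.84 without ethanol replicate 3. The Serpina3m model spans 104304745 to 104360516 on the plus strand of chromosome 12 in the deposited table and contains Serpina3k, which starts at the same position and ends at 104312403. Reads could therefore be shared between them. The ratio of Serpina3m to Serpina3k FPKM, which needs no scaling between libraries, was 0.0710, 0.0703 and 0.103 in ethanol and 0.0216, 0.0205 and 0.0210 in control livers, so that the groups differed also within a library.

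Serpina3k itself was at 21919, 18358 and 22518 CPM in ethanol and 8922, 9891 and 9831 CPM in control livers. A log2 fold change of 1.13 ± 0.13 (SE, edgeR adjusted p = 0.000872) was just beyond the threshold and fell to 0.46 with library size alone, where it was not called. It was close to the threshold on the TMM scale without ethanol replicate 3 as well, at 1.09. The counts of Serpina3k and Serpina3m summed gave 1.20, and all Serpina3 members summed gave 1.31 ± 0.17 with an edgeR adjusted p of 0.00143. That sum was 0.63 with library size alone and not called, while relative to the median of all genes it was 1.35 higher with TMM and 1.34 with library size alone.

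Serpina3n, which is induced in the acute-phase response, was at 773, 520 and 5678 CPM in ethanol and 221, 292 and 273 CPM in control livers. All ethanol values were above all control values, but ethanol replicate 3 was far above the other two. The log2 fold change was 3.15 ± 0.89 (SE, edgeR adjusted p = 0.0259), and 1.31 without that library, still called with an adjusted p of 0.000867. The call was lost by edgeR when any 1 of the control libraries was left out, with values of 3.04 to 3.23 and adjusted p of 0.0827 to 0.0972. Relative to Serpina3k in the same library, Serpina3n stood at 0.0351, 0.0282 and 0.251 in ethanol and 0.0246, 0.0294 and 0.0277 in control livers. Only ethanol replicate 3 lay well outside the control range by this ratio.

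Serpina3c also rested on ethanol replicate 3. It was at 0.747, 0.769 and 10.6 CPM in ethanol and 0.277, 0.486 and 0.449 CPM in control livers. The fitted value of 3.31 ± 1.10 (SE, edgeR adjusted p = 0.0447) became 0.92 without ethanol replicate 3, with an adjusted p of 0.130, and the call was also lost when any 1 control library was left out, at 3.10 to 3.46, and with library size alone, at 2.61. Serpina3g, an intracellular inhibitor of lysosomal cathepsins, was at 7.11, 5.95 and 18.1 CPM in ethanol and 4.34, 2.95 and 3.19 CPM in control livers. For Serpina3g the log2 fold change was 1.57 ± 0.44 (SE, edgeR adjusted p = 0.0243), 0.91 without ethanol replicate 3 (adjusted p = 0.00803), 1.46 to 1.75 without any 1 control library and 0.88 with library size alone, none of which was called.

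Serpina3h, typed as a long non-coding RNA in the table, was at 0.921, 0.752 and 2.09 CPM in ethanol and 0.202, 0.236 and 0.449 CPM in control livers. These CPM rest on 46 to 114 counts in ethanol and 18 to 37 in control libraries. The log2 fold change was 2.08 ± 0.55 (SE, edgeR adjusted p = 0.0208) and 1.504 without ethanol replicate 3, but without control replicate 1 or 2 it was 1.86 or 1.94 and not called, and with library size alone it was 1.39 and not called. Serpina3f overlapped between the groups, with 2.76, 2.37 and 4.14 CPM in ethanol and 1.47, 0.814 and 5.11 CPM in control livers, and its log2 fold change of 0.33 with TMM was -0.35 with library size alone.

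Serpina3i did not pass the filter, which needs a minimum count in enough libraries. It had 15, 6 and 618 counts in ethanol replicates 1, 2 and 3 and 0 in all 3 control libraries. Nearly all of its reads came from ethanol replicate 3, and no fold change is given. It was tested and called higher by edgeR when ethanol replicate 2 was left out, with an adjusted p of 0.0345, and tested but not called without any 1 control library. Low counts in this table pile up at 4 and 8, as if a fragment were recorded more than once, so a count of a few is weaker evidence than it looks. The other 3 untested members of the group, Serpina3a, Serpina3b and Serpina3j, had at most 39 counts in a library.

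**Figure D3:**
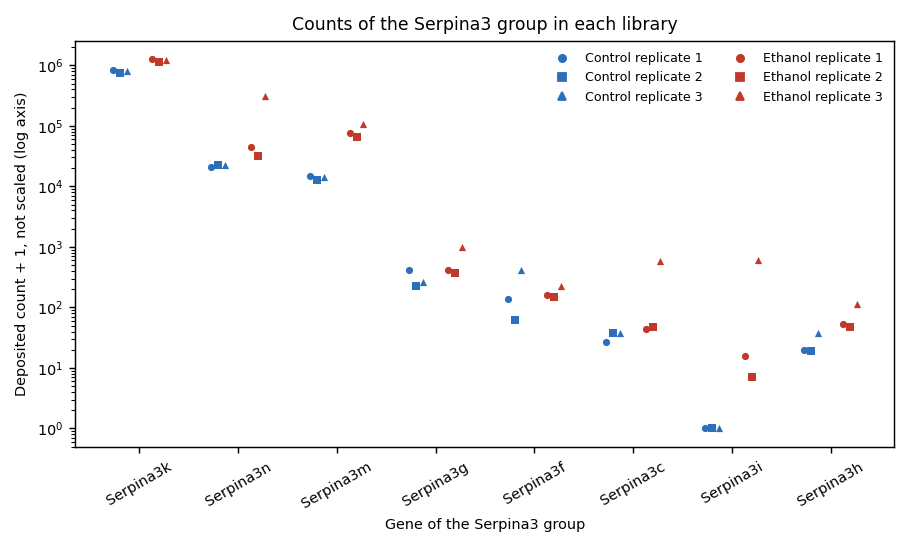
Deposited counts of 8 genes of the Serpina3 group in each library, with 1 added so that 0 can be drawn on the log axis, and with no scaling between libraries. Blue marks are control and red marks ethanol libraries, with a marker shape for each replicate. The groups do not overlap in Serpina3k, Serpina3m, Serpina3n, Serpina3h, Serpina3c and Serpina3i, and they overlap in Serpina3f and Serpina3g. Serpina3n, Serpina3c and Serpina3i are far higher in ethanol replicate 3 than in any other library.

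The promoters of 4 genes that were highest in ethanol replicate 3 are shown because they match motifs in pairs. The promoter table used here has no entry for Serpina3k, Serpina3m and Serpina3h, which were not searched. Serpina3n and Serpina3c both hold a match to the glucocorticoid receptor motif, GNACA and, after 3 unspecified bases, TGTNC. The motif reads the same on both strands, and capitals mark it.
Serpina3n: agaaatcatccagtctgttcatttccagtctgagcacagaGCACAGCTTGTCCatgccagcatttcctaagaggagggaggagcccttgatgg
Serpina3c: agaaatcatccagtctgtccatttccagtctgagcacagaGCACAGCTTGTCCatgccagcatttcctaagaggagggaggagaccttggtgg
The windows lie at chr12:104406590-104406682 on the plus strand and chr12:104153895-104153987 on the minus strand of GRCm38.p6 (RefSeq), and the match starts 78 and 75 bases before the start site. The 2 windows shared 90 of 93 bases. The match was present in 0.475% of all promoters and in 3 of the 36 members with a promoter, the third being Serpinf2, whose expression was not called with TMM. Serpina3g and Serpina3i hold the STAT motif TTCNNNGAA, also the same on both strands.
Serpina3g: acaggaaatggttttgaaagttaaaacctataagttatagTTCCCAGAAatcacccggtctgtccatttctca
Serpina3i: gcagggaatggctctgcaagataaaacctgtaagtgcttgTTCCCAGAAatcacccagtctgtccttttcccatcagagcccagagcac
These windows lie at chr12:104236074-104236146 and chr12:104262980-104263068, both on the plus strand, with the match 33 and 102 bases before the start site, and they shared 60 of 73 bases. TTCNNNGAA was present in 8.3% of all promoters and in 6 of the 36 members, among them Serpina3f, which was not called. No match overlapped a match to another motif searched. These matches describe letters, and no binding was measured.

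The C/EBP motif TTGCNNAA, searched on both strands, was present in 11 of the 36 members, Serpina1a, Serpina1b, Serpina1d and Serpina1e among them, and in 10.8% of all promoters. TATAAA was present in 8 of the 36 members and in 13.6% of all promoters.

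Among the inhibitors of fibrinolysis, Serpinf2 (α2-antiplasmin), which inhibits plasmin, was at 409, 382 and 631 CPM in ethanol and 654, 608 and 595 CPM in control livers. The groups overlapped through ethanol replicate 3. Serpinf2 gave a log2 fold change of -0.39 ± 0.20 (SE, edgeR adjusted p = 0.157), which was not called, and it was -1.06 and called lower with library size alone. Both limma fits also called it lower. Without ethanol replicate 3 it was -0.64 (edgeR adjusted p = 0.000724), under the threshold of 1. Serpine2 (protease nexin 1), an inhibitor of thrombin and plasminogen activators, was at 16.6, 11.1 and 22.3 CPM in ethanol and 5.77, 10.2 and 10.3 CPM in control livers. Its log2 fold change was 0.93 ± 0.31 (SE, edgeR adjusted p = 0.0466), under the threshold of 1, and 1.15 and called without ethanol replicate 2. It was 0.67 without ethanol replicate 3 and 0.25 with library size alone. Serpinb2 (plasminogen activator inhibitor 2) had no count in any library.

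With TMM and all 6 libraries, edgeR called none of the 5 plasma inhibitors of coagulation and complement, although 4 had an unadjusted p under 0.05. DESeq2 called none either, while limma on log2(FPKM + 1) called 1, Serpind1, lower. Serpinc1 (antithrombin), the inhibitor of thrombin and factor Xa, was at 2003, 1945 and 1815 CPM in ethanol and 1548, 1481 and 1481 CPM in control livers. The log2 fold change of antithrombin was 0.35 ± 0.10 with TMM (SE, edgeR adjusted p = 0.0303) but -0.31 with library size alone, so its direction depends on the scaling. Serping1 (C1 inhibitor), which restrains C1r, C1s and kallikrein, had a log2 fold change of 0.68 ± 0.10 with TMM (SE, edgeR adjusted p = 0.00234) and 0.01 with library size alone.

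Serpind1 (heparin cofactor II), a thrombin inhibitor, was at 359, 367 and 210 CPM in ethanol and 459, 456 and 433 CPM in control livers. Every ethanol library lay below every control library, and ethanol replicate 3 was the lowest. On the log2 scale the change was -0.53 ± 0.21 (SE, edgeR adjusted p = 0.0823), -0.30 without ethanol replicate 3, and -1.19 and called lower with library size alone. The gene overlaps Pi4ka on the opposite strand. Serpina10, the inhibitor of factor Xa that works with protein Z, was at 160, 146 and 310 CPM in ethanol and 115, 137 and 133 CPM in control livers, which gave 0.68 ± 0.28 (SE, edgeR adjusted p = 0.0905), 0.26 without ethanol replicate 3 and -0.0021 with library size alone. Serpina5 (protein C inhibitor) was scarce, at 0.0826 to 0.495 FPKM, and its groups overlapped. Its value of 1.23 ± 0.75 (SE, edgeR adjusted p = 0.223) became 2.46 and was called when control replicate 2 was left out.

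The hormone carriers, which inhibit no protease, differed in direction. Serpina6 (corticosteroid-binding globulin), which carries glucocorticoids in plasma, was at 291, 349 and 234 CPM in ethanol and 86.8, 67.0 and 80.6 CPM in control livers. The groups were far apart, and ethanol replicate 3 was the lowest of the ethanol libraries here. The log2 fold change was 1.90 ± 0.18 (SE, edgeR adjusted p = 0.000385), 2.04 without ethanol replicate 3 and 1.24 with library size alone. Serpina7 (thyroxine-binding globulin) was at 13.2, 12.5 and 7.40 CPM in ethanol and 22.2, 17.9 and 20.4 CPM in control livers. Its groups did not overlap, and its log2 fold change of -0.87 ± 0.23 (SE, edgeR adjusted p = 0.0189) did not reach the threshold of 1, while it was -1.53 and called with library size alone and -1.01 and called without ethanol replicate 1. Within a library, Serpina6 was 30.7, 38.9 and 43.9 times as high as Serpina7 in FPKM in ethanol and 5.44, 5.20 and 5.50 times as high in control livers.

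**Figure D4:**
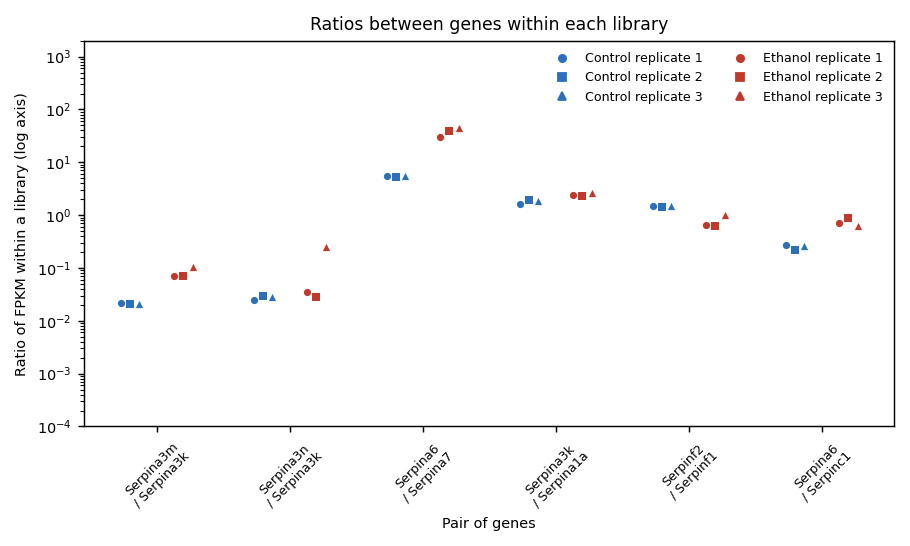
Ratio of the FPKM of 2 Serpin genes within each library, on a log axis, for 6 pairs. Blue marks are control and red marks ethanol libraries, with a marker shape for each replicate. The ratios need no scaling between libraries, and those of Serpina6 to Serpina7 lie at 5.20 to 5.50 in control and 30.7 to 43.9 in ethanol libraries.

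Of the other secreted serpins and those of the endoplasmic reticulum, Serpinh1 fell. It encodes HSP47, a chaperone that procollagen needs to fold. It was at 4.01, 6.41 and 4.18 CPM in ethanol and 7.80, 11.2 and 12.0 CPM in control livers, without overlap. The log2 fold change was -1.08 ± 0.25 (SE, edgeR adjusted p = 0.0128). It lay close to the threshold, and the call was lost without ethanol replicate 1 or 3 or control replicate 2 or 3, at -1.03 to -0.96. Of 8 collagen genes listed as its clients, all tested, 3 were called lower and none higher, with a median log2 fold change of -0.81, beside 13.8% called lower, 10.4% called higher and a median of -0.04 over all genes. Col3a1 was at 4.62, 5.82 and 5.11 CPM in ethanol and 12.8, 39.1 and 32.4 CPM in control livers, a log2 fold change of -2.44 ± 0.39 (SE, edgeR adjusted p = 0.00291). Col1a1 and Col5a2 were the others, at -1.90 and -1.34, and lost their calls without ethanol replicate 1 or 2 or control replicate 2 or 3. With library size alone, these 3 stayed called, and Col1a2, Col5a1 and Col6a1 were also called lower, at -1.52, -1.29 and -1.43, beside 32.2% of all genes. The basement membrane chains Col4a1 and Col4a2 were at 0.95 and 0.53 with TMM and 0.28 and -0.14 with library size alone. The 8 stellate cell markers, which include Col1a1 and Col3a1, summed to 16.8 to 20.3 FPKM in ethanol and 23.6 to 35.6 FPKM in control livers, also in FPKM, where most genes lay lower. None was at 0, and the 2 called lower were Col1a1 and Col3a1 themselves. None of the other 6 was called with TMM. Acta2, Lrat and Des were then at -1.40, -0.49 and -0.41 and Dcn, Reln and Rgs5 at 0.43, 0.17 and 0.11. With library size alone, Lrat and Des were called lower at -1.15 and -1.08, and Acta2 was at -2.06 and not called. Dcn, Reln and Rgs5 were at -0.23, -0.49 and -0.56 with library size alone. The median of the 8 was -0.45 with TMM, and the part of these cells in the values of Serpinh1 was not tested.

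Serpinf1 (pigment epithelium-derived factor), which neighbours Serpinf2 on chromosome 11, was not called, with 0.58 ± 0.10 on the log2 scale with TMM and -0.09 with library size alone. The ratio of Serpinf2 to Serpinf1 FPKM was 0.641, 0.614 and 1.02 in ethanol and 1.52, 1.44 and 1.48 in control livers, so that this pair diverged within every ethanol library. Serpina11 had a log2 fold change of 0.81 ± 0.16 (SE, edgeR adjusted p = 0.00575), under the threshold, and of 0.15 with library size alone. Serpina12 (vaspin) was at 20.8, 19.7 and 14.9 CPM in ethanol and 21.7, 44.9 and 37.6 CPM in control livers. All its ethanol values lay below the controls, and its log2 fold change of -0.91 ± 0.27 (SE, edgeR adjusted p = 0.0308) was called only in alternatives, among them -1.16 without control replicate 1 and -1.57 with library size alone. Serpina9 was scarce and had 0 counts in ethanol replicate 3. Its log2 fold change was -1.04 ± 1.04 (SE, edgeR adjusted p = 0.448), and -0.45 without that library. Serpine3 and Serpini1 (neuroserpin) were not tested and had at most 29 counts in a library.

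Clade B serpins stay inside cells and guard them against their own or incoming proteases. The group held 11 members, as Serpinb2, also of clade B, is listed with the inhibitors of fibrinolysis. Of these 11, 5 were tested, 1 was called higher (20%) and 1 lower (20%), beside 10.4% and 13.8% of all genes. Serpinb6b was at 7.53, 12.1 and 4.86 CPM in ethanol and 3.40, 2.22 and 1.81 CPM in control livers. The groups did not overlap in CPM but did in FPKM, at 1.53 to 4.17 and 0.936 to 1.76. Its log2 fold change was 1.72 ± 0.39 (SE, edgeR adjusted p = 0.0109), 2.0003 without ethanol replicate 3, and 1.07 and not called with library size alone. Serpinb9, which inhibits granzyme B, was at 3.68, 4.17 and 5.17 CPM in ethanol and 10.3, 6.51 and 10.02 CPM in control livers. Its log2 fold change of -1.04 ± 0.23 (SE, edgeR adjusted p = 0.0109) was close to the threshold, and without ethanol replicate 1, control replicate 1 or control replicate 3 it was -0.94, -0.93 or -0.96 and not called.

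Beside Serpinb9, the lymphocyte markers summed to 1.02 to 1.21 FPKM in ethanol and 2.71 to 3.50 FPKM in control livers, a unit in which 57.4% of all genes lay lower throughout. With TMM, 1 of 6 tested genes, out of 8 listed, was called lower and none higher. With library size alone, Cd3g, Ms4a1 and Ighm were called lower, beside 32.2% of all genes. Cd8a was at 0 in every ethanol library, and the part of these cells was not tested. The target of Serpinb9, Gzmb, was at 0.0869, 0 and 0 CPM in ethanol and 0.256, 0.262 and 0.206 CPM in control livers. It was not called with TMM but was called lower with library size alone, at -3.64. These Gzmb values rest on 5, 0 and 0 counts in ethanol and 24, 20 and 17 in control libraries. Serpinb1a, an inhibitor of neutrophil elastase, was at 2.10, 2.24 and 2.22 CPM in ethanol and 5.90, 2.26 and 3.44 CPM in control livers. Its log2 fold change was -0.82 ± 0.36 (SE, edgeR adjusted p = 0.0993), and -1.10 and called when control replicate 2 was left out. It was called lower also with library size alone, at -1.49, and with limma on log2(FPKM + 0.1), at -1.28. Other alternatives made the change of Serpinb1a smaller, down to -0.38. Serpinb8 was not called at -0.79 ± 0.44 but was called lower with library size alone, at -1.44. Its smallest change in any alternative was -0.25. Serpinb6a, which overlaps Ripk1 and Nqo2 on the opposite strand, was at 0.37 with TMM and -0.30 with library size alone, and was called with neither. The 6 untested members, Serpinb1b, Serpinb1c, Serpinb5, Serpinb7, Serpinb9b and Serpinb10, had at most 20 counts in a library, and Serpinb5 and Serpinb10 had none.

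By position, 22 of the members lie in a cluster on chromosome 12, from 103581045 to 104380588 in the deposited table, a span of 799.5 kb that runs from Serpina10 to Serpina3n. It includes both the α1-antitrypsin and the Serpina3 genes. Of its 18 tested members, 7 were called higher and none lower with TMM, beside 10.4% and 13.8% of all genes. With library size alone, 3 were called higher, Serpina3m, Serpina3n and Serpina6, and 1 lower, Serpina12, beside 5.06% and 32.2% of all genes. Without control replicate 1, only Serpina3k, Serpina3m and Serpina6 were called higher and Serpina12 lower, beside 8.79% and 10.2% of all genes. The clade B cluster on chromosome 13 held 7 members, of which 4 were tested, with Serpinb6b called higher and Serpinb9 lower.

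The proteases, cofactors, receptors and collagens that serpins act on or with were taken as lists of 49 genes, of which 48 were in the table and 44 were tested. Of these, 7 were called higher and 3 lower, beside 10.4% and 13.8% of all genes. Plaur, the urokinase receptor, was at 2.42, 2.81 and 5.77 CPM in ethanol and 0.0746, 0.197 and 0.206 CPM in control livers, a log2 fold change of 4.52 ± 0.54 (SE, edgeR adjusted p = 0.000968). Its control values rest on 7, 15 and 17 counts, so the size of this change is uncertain. Thbd (thrombomodulin), which turns thrombin towards protein C, was at 10.7, 12.95 and 38.6 CPM in ethanol and 2.16, 2.98 and 2.62 CPM in control livers, a log2 fold change of 3.002 ± 0.51 (SE, edgeR adjusted p = 0.00360), and 2.20 without ethanol replicate 3. Both were above the control range in every ethanol library, and both were highest in ethanol replicate 3.

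Plat (tissue plasminogen activator), which turns plasminogen into plasmin, was at 3.22, 2.73 and 1.56 CPM in ethanol and 0.384, 0.748 and 1.03 CPM in control livers, with a log2 fold change of 1.80 ± 0.45 (SE, edgeR adjusted p = 0.0164). Plat was not called without ethanol replicate 1 or control replicate 2, at 1.57 and 1.82, or with library size alone, at 1.13. Plau, the other plasminogen activator, had 0 counts in ethanol replicate 3. It was not called at -0.94 ± 1.02, nor at -0.36 without that library. Plg, the precursor of plasmin, was not called, at 0.45 with TMM and -0.22 with library size alone. Vtn (vitronectin), an adhesive protein of plasma and matrix, was at 3076, 2667 and 5694 CPM in ethanol and 1664, 1731 and 1712 CPM in control livers. On the log2 scale Vtn changed by 1.16 ± 0.28 (SE, edgeR adjusted p = 0.0140) and 0.77, under the threshold, without ethanol replicate 3, and without any 1 control library it was 1.14 to 1.17 and not called, nor was it called with library size alone, at 0.48. Ctsl (cathepsin L) was called higher at 1.85 ± 0.18 and Vldlr, a receptor that takes up serpin and protease complexes, at 1.27 ± 0.43. Vldlr lost its call without any 1 library other than ethanol replicate 3, at 0.91 to 1.49, and with library size alone, at 0.62. It was scarce, at 0.115 to 0.440 FPKM. Lrp1, another receptor of the lists, was at 11.1 to 32.8 FPKM and did not rise. Its log2 fold change was -0.34 ± 0.24 with TMM and -0.65 without ethanol replicate 3, neither of them called. Lrp1 was called lower with library size alone, at -1.02, beside 32.2% of all genes.

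With TMM, F12 alone of 8 coagulation proteases and their zymogens was called higher, at 1.07 ± 0.10 (SE, edgeR adjusted p = 0.000379), and none lower. The share called higher was near the 10.4% of all genes. With library size alone F12 was at 0.40 and not called. F2 (prothrombin) was at 0.67 with TMM and 0.00073 with library size alone. F11 was at -0.69 with TMM, and at -1.36 and called lower with library size alone, beside 32.2% of all genes. None of the 4 complement proteases, of 5 membrane proteases or receptors, or of 3 other plasma carriers was called by edgeR with TMM. DESeq2 and limma called none of them either. In edgeR with TMM, 2, 2 and 3 of them had an unadjusted p under 0.05. For these, C1ra, Masp1, Hpn, Ttr, Alb and Gc also had an adjusted p of 0.00229 to 0.0320, with changes under the threshold of 1. F3, of the membrane list, was called lower with library size alone, at -1.08, beside 32.2% of all genes. Ttr and Alb, which carry thyroid hormone beside Serpina7, were at 0.50 and 0.82 with TMM and -0.17 and 0.15 with library size alone. Of 7 leukocyte proteases, 2 passed the filter, and neither was called with TMM, 1 of them (Gzmb) having an unadjusted p under 0.05 in edgeR. With library size alone Gzmb was called lower, at -3.64, on at most 24 counts in a library.

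**Figure D5:**
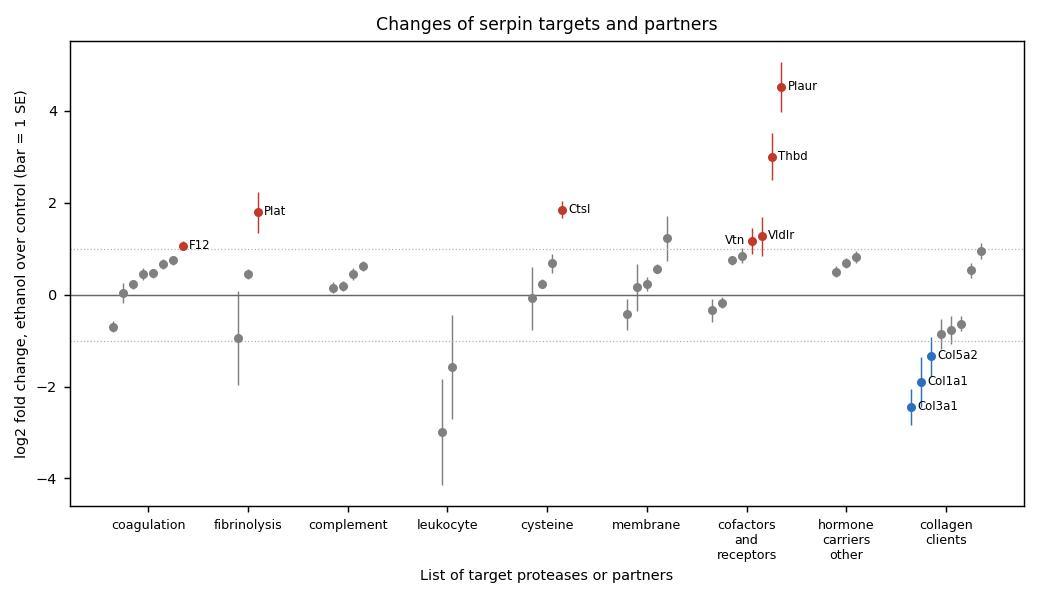
Log2 fold change of ethanol over control, with bars of 1 SE, for the tested targets and partners of serpins in 9 lists. Red points were called higher, blue points lower and grey points were not called, and dotted lines mark a log2 fold change of 1 in either direction. Plaur at 4.52 and Thbd at 3.002 lie highest, and Col3a1 at -2.44 is the lowest of the called genes.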

How the data were processed

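The authors removed adaptor, low-quality and ambiguous reads from paired-end liver RNA-seq and aligned the rest. The submitters' processing notes name GRCm38 (mm10), and the aligner and counter are not given in the sources used here. Of 44 members found in the GENCODE annotation of GRCm38, 0 had the start or end that the table gives, so positions are quoted as deposited and their build was not established. For each gene the authors deposited an estimated count, held as a whole number, and an FPKM value, scaled to library size and transcript length. Strand use in counting is not given, so overlapping genes and paralogs are uncertain. A further 1 column of counts has no matching library and was not used.

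The counts were tested with edgeR 4.0.16 in R 4.3.3 (filterByExpr with a minimum count of 10, TMM, quasi-likelihood test, Benjamini-Hochberg adjustment over 16717 genes, adjusted p under 0.05 and log2 fold change beyond 1, the thresholds of the study). Errors are SE. All 6 libraries entered 1 fit without covariates. Depth leaves counting error small for all but scarce genes, and 3 mice per group limit the precision. No library was a duplicate, as those of a group differed by more than sampling noise (chi-square over its degrees of freedom, 53.9 to 545). The alternatives were other scalings and filters, DESeq2 1.42.0, limma 3.58.1 on log2(FPKM + 1) and log2(FPKM + 0.1) for a mean FPKM of at least 0.1, a replicate block, the adjusted p alone, paralogs summed, and each library left out. Dividing the counts by 4 and summing overlapping pairs were chosen after seeing the data. The scripts were tested on simulated data.

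The members, roles, partner lists, marker lists and motifs were chosen with earlier results of these data known. Named in full were called members, the 10 with the highest mean FPKM, and tested plasma inhibitors, hormone carriers and the collagen chaperone. The marker lists cover hepatocytes, neutrophils, stellate cells and lymphocytes, beside Kupffer cells (1 of 8 tested genes higher, none lower), endothelium (1 of 7 higher, 2 lower), cholangiocytes (1 of 5 higher), mesothelium (0 of 4 called), erythroid cells (2 of 3 higher), platelets (2 of 3 higher) and pancreas (0 of 2 called). The HNF1 and heat shock motifs were found in 0 of 36 member promoters and in 0.00913% and 0.603% of all promoters. Matplotlib 3.10.9 drew the figures. Protein sequences were not used here. Of the members, 1 is counted but not reported here.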

Additional observations from a re-analysis of the deposited data

How the results depend on the processing

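Against 9 Serpin genes called higher and 2 lower, library size alone gave 4 and 8, beside 5.06% and 32.2% of all genes. Limma on log2(FPKM + 1) gave 3 and 6, beside 2.55% and 10.7%. On log2(FPKM + 0.1) it gave 3 and 7, beside 4.69% and 31.0%. The adjusted p alone gave 18 and 4, beside 21.5% and 21.5%. Removing the trend with length gave 1 lower, beside 11.6%. Leaving out each library gave 5 to 11 higher and 0 to 2 lower, beside 8.57% to 10.9% and 9.88% to 16.5% of all genes. The 11 came without ethanol replicate 2, where Serpine2 and Serpina3i were added. Against 7 partner genes higher and 3 lower, library size alone gave 3 and 10, and a floor of 1 on the mean FPKM gave 3 and 1. Limma gave 2 higher on log2(FPKM + 1), and 3 and 9 on log2(FPKM + 0.1). The adjusted p alone gave 22 and 5, and leaving out a library gave 5 to 7 and 1 to 5. The shares of all genes were those given above for the same fits, and 10.6% and 12.1% with the floor. The Serpina1 sum turned from 0.64 to -0.037, -0.053 and -0.053 and the Serpina3 sum fell from 1.31 to 0.63 under library size alone and both limma fits. With a library left out they were 0.56 to 0.72 and 1.15 to 1.44. These scalings shift all genes, whose calls were lower in 57.0% of cases with TMM, 86.4% with library size alone, 63.4% with upper quartile scaling, 80.8% and 86.8% with limma and 50.7% without the length trend.

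Directions reversed in these genes under library size alone, log2(FPKM + 1) and log2(FPKM + 0.1). Serpina10 gave -0.0021, -0.072 and -0.075, Serpina1c -0.047, -0.051 and -0.051, Serpina1d -0.070, -0.072 and -0.072, Serpina1e -0.13, -0.16 and -0.16, Serpinb6a -0.30, -0.15 and -0.27, Serpinc1 -0.31, -0.32 and -0.32, and Serpinf1 -0.086, -0.089 and -0.089. Serpina3f gave -0.35 and -0.073 in the first 2 of them and -0.092 to 1.43 with a library left out, the lowest without control replicate 2. The cause was not tested.

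Same-numbered libraries showed no shared deviation from their group means, with correlations of -0.035, -0.021 and -0.017. Such correlations cannot show whether the mice were paired by number. With the replicate block, 7 Serpin genes were called higher and 2 lower, beside 9.08% and 12.0% of all genes. Serpina3n and Serpina3c were no longer called, at 2.28 and 2.19. In the same fit 1 partner gene was called lower. Serpina3h rests on 18 to 114 counts a library, so counting error weighs more on it than on abundant members.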
